A study of Mus musculus with 20 samples.

Results

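Within the Myd88 knockout (Myd88KO) trachea arrays, the distal chromosome 2 interval studied here is a window of whole megabases around Rprd1b, whose first and last member probes start at 148021539 and 163978677. Positions are those written in the array files, and their genome build is not stated in the sources used here. Its members were all non-control probes that start inside the window, except the probe for lipopolysaccharide-binding protein (Lbp) at 158069296 to 158072838. There were 396 such probes among 41174 on the array, naming 259 genes or transcripts. Of these, 280 probes for 183 genes or transcripts gave a signal the scanner software called well above background on 10 or more arrays out of 20 and were tested, among 26063 tested in all. The interval was chosen by differences between uninjured Myd88KO and wild-type (WT) tracheas, so the uninjured values below are a description, and tests are given for the injured tracheas and for injury itself.

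Whole-trachea RNA was hybridised to 20 one-colour Agilent arrays, with 5 arrays in each of 4 groups: uninjured WT, uninjured Myd88KO, injured WT and injured Myd88KO. All mice were labelled C57/Bl6 and 4 months old, and the injured groups had received 2% polidocanol, a detergent that strips the tracheal epithelium, 3 days before collection. According to the methods the knockouts carry a global Myd88 deletion, were back-crossed to the C57/Bl6JOlaHsd strain and then bred knockout to knockout, while the WT mice came from a separate colony of that strain. Loss of Myd88 and any other difference between the 2 colonies, at this interval or elsewhere, cannot be told apart here.

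The interval carries genes of several unrelated kinds. Rprd1b encodes a protein that binds the tail of RNA polymerase II and is known to promote cyclin D1 transcription and cell division. The BPI-fold cluster encodes secreted proteins of the airway lining that resemble bactericidal/permeability-increasing protein, and cystatins and whey acidic protein (WAP) domain proteins are secreted protease inhibitors. Tpx2, E2f1, Mybl2, Gins1 and Dsn1 act in DNA replication and mitosis.

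Promoter sequence is shown for 4 of the named genes with a probe that differed between Myd88KO and WT tracheas. It is given so that the regions behind the values can be read. Each run is the stretch of 250 bases before the RefSeq transcription start in build GRCm38.p6, 5′ to 3′ on the gene's strand. Entries were found for 5 of the 6 named genes looked up, and Itch was not among them. Capitals mark every match, on either strand, to CCAAT (the CCAAT box), GGGCGG (the GC box), TATAAA (the TATA box) or the NF-kB consensus site, and they mark no other letters.
Rprd1b, chr2:158028247-158028496, plus strand: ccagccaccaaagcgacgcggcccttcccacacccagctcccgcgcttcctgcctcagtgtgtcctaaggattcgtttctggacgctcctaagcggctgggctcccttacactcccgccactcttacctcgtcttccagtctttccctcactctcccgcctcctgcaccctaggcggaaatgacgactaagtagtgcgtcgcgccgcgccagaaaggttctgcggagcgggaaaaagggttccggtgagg
Zcchc3, chr2:152415045-152415294, minus strand: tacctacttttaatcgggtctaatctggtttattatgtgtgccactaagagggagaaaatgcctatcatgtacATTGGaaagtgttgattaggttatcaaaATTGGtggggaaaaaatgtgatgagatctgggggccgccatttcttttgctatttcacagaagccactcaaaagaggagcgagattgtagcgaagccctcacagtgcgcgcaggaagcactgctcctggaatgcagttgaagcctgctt
Mapre1, chr2:153741037-153741286, plus strand: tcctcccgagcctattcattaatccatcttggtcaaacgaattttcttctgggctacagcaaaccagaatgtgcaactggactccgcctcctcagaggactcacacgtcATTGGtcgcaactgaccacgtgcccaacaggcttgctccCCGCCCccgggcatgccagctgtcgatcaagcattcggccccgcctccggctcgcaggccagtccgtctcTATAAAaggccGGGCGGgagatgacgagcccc
Eif2s2, chr2:154892907-154893156, minus strand: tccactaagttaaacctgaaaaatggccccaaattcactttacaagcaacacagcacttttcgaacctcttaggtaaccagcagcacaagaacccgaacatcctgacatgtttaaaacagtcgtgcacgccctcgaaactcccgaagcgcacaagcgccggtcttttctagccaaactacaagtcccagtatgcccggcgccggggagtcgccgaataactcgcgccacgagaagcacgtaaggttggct

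The Zcchc3 window held 2 CCAAT boxes, the Mapre1 window held 1 CCAAT box, 2 GC boxes and 1 TATA box, and the Rprd1b and Eif2s2 windows held none of the 4 motifs. Among 32851 promoters of this length, 33.8% held a CCAAT box, 32.7% a GC box, 12.4% a TATA box and 0.14% the NF-kB site. These matches describe the letters only. The arrays measured no binding, and the sequences of the array probes themselves were not used here.

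On the 20 arrays 57.5 to 67.8% of probes were well above background, and arrays of one group correlated at r = 0.925 to 0.990 over the tested probes. The Myd88 probe was at 2.13, 1.95, 2.28, 1.94 and 2.08 in uninjured WT, at 2.00, 1.82, 2.04, 1.86 and 1.60 in uninjured Myd88KO, at 2.78, 2.67, 2.36, 2.65 and 2.80 in injured WT and at 1.54, 2.04, 2.09, 2.09 and 1.68 in injured Myd88KO tracheas. All levels are log2 intensities relative to the array's 75th percentile. The position of this probe relative to the deleted part of Myd88 is not given in the sources used here, so it does not check the labels. Secretory, basal, ciliated, cartilage and smooth muscle markers were all detected, and so were markers of thyroid, skeletal muscle, brown fat and leukocytes. Of the last 4 lists, none of the 10 tested probes passed in either Myd88KO against WT comparison. The brown fat gene Ucp1 was 2.42 (uninjured) and 2.11 (injured) higher on the log2 scale in Myd88KO, with levels from 0.66 to 3.09 in uninjured WT, 3.95 to 5.06 in uninjured Myd88KO, -0.28 to 4.22 in injured WT and 2.37 to 4.91 in injured Myd88KO tracheas. The summed leukocyte level ran from 1.79 to 5.08, from -0.31 to 1.76, from 3.84 to 8.01 and from 0.11 to 5.45 in the same order of groups. The part of either tissue in the results below was not tested.

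Of the 280 tested probes, one for Rprd1b had the largest Myd88KO minus WT difference in both states. Its probe at 157817178 to 157817237 was at 2.76, 2.39, 2.44, 2.46 and 3.18 in the 5 uninjured WT tracheas and at -0.09, -0.33, -0.14, -0.26 and -0.16 in the 5 uninjured Myd88KO tracheas. After injury it was at 2.93, 2.58, 2.80, 3.11 and 2.80 in WT and at -0.40, -0.26, -0.33, -0.58 and 0.14 in Myd88KO. Every Myd88KO array was below every WT array in each state, and the lowest WT array stood over 2 log2 units above the highest Myd88KO array. The injured difference was -3.13 (SE 0.163, n = 5 and 5, limma adjusted p = 3.2e-10), or 8.75-fold lower, and the uninjured difference that served to choose the interval was -2.84. On the 5 slides, each of which held 1 array of every group, the injured difference ran from -3.69 to -2.66.

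A second Rprd1b probe, 32.9 kb away at 157784323 to 157784382, differed by much less. It was at -1.06, -1.28, -1.35, -1.09 and -1.38 in injured WT and at -1.49, -1.61, -1.45, -1.74 and -1.10 in injured Myd88KO tracheas, and the groups overlapped. Its injured difference was -0.25 (SE 0.155, limma adjusted p = 0.540) and its uninjured difference was -0.12. Within each injured array the first probe exceeded the second by 4.08 ± 0.142 in WT and by 1.19 ± 0.104 in Myd88KO (SD, n = 5 each), a difference of -2.88. This contrast and those of other probe pairs below are descriptions without a test, since one probe of each pair was called on the same arrays.

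Across the interval, 7 of 280 tested probes (2.5%) had an adjusted p under 0.01 in the uninjured comparison, 2 higher and 5 lower in Myd88KO, where 0.384% of all tested probes did. This is the comparison the interval was chosen on, and nothing is read from it. In the injured comparison, whose differences come from 10 other arrays with the spread estimated over all 20, 9 of 280 probes (3.21%) differed at that threshold, against 0.38% of all tested probes and 8 of 1786 tested on the rest of chromosome 2. Of the 9, 3 were higher and 6 lower in Myd88KO. With the 10 injured arrays fitted alone 5 of the 9 were called, the probes for Mapre1, Eif2s2, Itch and Rbm39 being lost (limma adjusted p from 0.0303 to 0.138). With the methods' one-way test 2 were called, those for Rprd1b and Zcchc3. Another 55 probes had an unadjusted p under 0.05, so that 64 (22.9%) did in all, against 12.5% of all probes. Earlier results of these same injured arrays were known when the interval was defined.

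The 9 probes lay between 152153987 and 157817178, a span of 5.66 Mb. None of the 47 tested probes below 152 Mb and none of the 63 from 158 Mb upward passed the threshold, against 9 of 170 between 152 and 158 Mb, limits set after the values were seen. Lbp, left out of these counts, starts above 158 Mb and did pass in injured tracheas (limma adjusted p = 0.0059). By 1 Mb bin the called probes numbered 1 from 152, 1 from 153, 2 from 154, 3 from 155, 1 from 156 and 1 from 157 Mb. Unadjusted p values under 0.05 came to 12.8%, 28.8% and 14.3% of the probes in the 3 stretches.

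**Figure D1:**
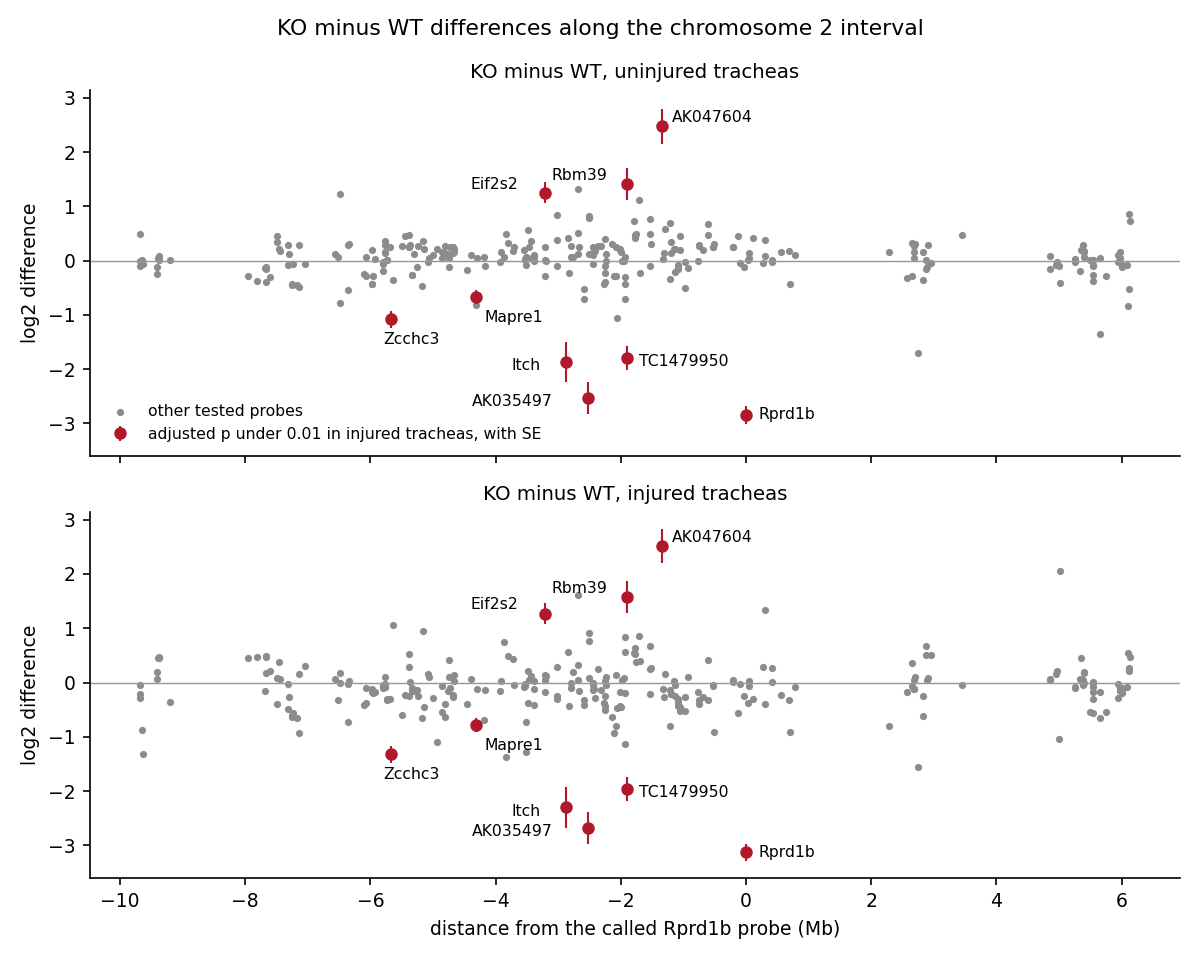
Myd88KO minus WT difference (log2) of the 280 tested probes by distance from the called Rprd1b probe in Mb, in uninjured (top) and injured (bottom) tracheas. Red points with SE are the 9 probes with an adjusted p under 0.01 in injured tracheas, which span 5.66 Mb and end at Rprd1b, and grey points are the other 271. Lbp, which lies beyond Rprd1b, is not plotted.

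All 7 probes of the uninjured comparison were among the 9 of the injured comparison and had the same sign. The other 2, for Itch and Rbm39, differed by -1.86 and 1.41 in uninjured tracheas. Myd88KO and WT arrays did not overlap in both states for 12 probes, the 9 and 3 more, and each of the 12 was on the same side both times. The share of all tested probes that did so in both states is not given here, so nothing is read from this count. The 3 were a second Mapre1 probe, a second Itch probe and the unnamed transcript NAP123201-1 at 155130106, which was 1.31 and 1.60 higher in Myd88KO. Without overlap stood 21 of 280 probes (7.5%) in injured tracheas, against 1.96% of all tested probes. Of the 271 other tested probes, 140 had differences of the same sign in both states. Their differences in the 2 states correlated at Pearson r = 0.32, against 0.12 over all tested probes. The 2 comparisons share no arrays, but the same 5 slides held the arrays of both, and the uninjured values served to choose the interval. Nothing is therefore read from this correlation. Nor is anything read from the count of shared signs, for which the share of all tested probes is not given here.

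**Figure D2:**
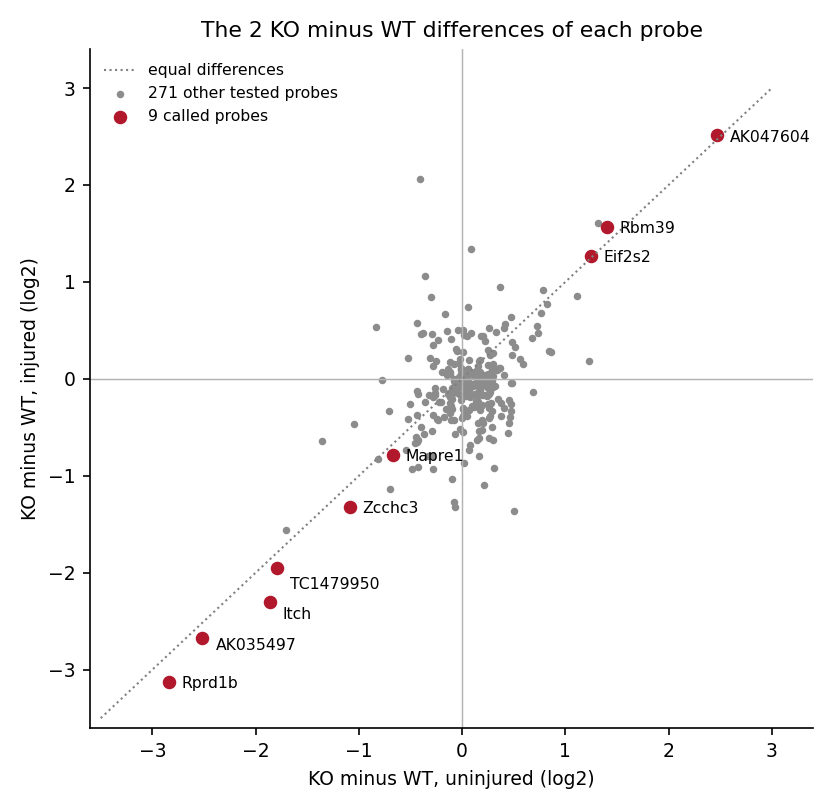
Myd88KO minus WT difference (log2) in uninjured tracheas on the horizontal axis against that in injured tracheas on the vertical axis, 1 point per tested probe of the interval. The 9 called probes (red) lie near the dotted line of equal differences, from Rprd1b at -2.84 and -3.13 to AK047604 at 2.47 and 2.51, while the 271 others (grey) gather around 0.

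Of the 6 probes that were lower in injured Myd88KO tracheas, 4 named a gene. Zcchc3 encodes a zinc-finger protein that binds nucleic acids and takes part in innate sensing of viral RNA and DNA. Its probe, at 152153987 to 152154046, was at -1.64, -1.36, -1.54, -1.19 and -1.26 in injured WT and at -2.64, -2.86, -2.70, -2.94 and -2.47 in injured Myd88KO. The groups were clear of each other, with a difference of -1.32 (SE 0.158, limma adjusted p = 5.61e-05), 2.50-fold lower, next to -1.08 in uninjured tracheas.

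Mapre1 encodes EB1, which rides on growing microtubule ends. Its called probe at 153509112 was at 3.57, 3.31, 3.38, 3.16 and 3.23 in injured WT and at 2.73, 2.61, 2.53, 2.51 and 2.35 in injured Myd88KO, a difference of -0.78 (SE 0.122, limma adjusted p = 0.00142). This was the smallest difference among the 9, and the call was lost with the 10 injured arrays alone (limma adjusted p = 0.0636). A neighbouring probe at 153508326 was lower by a like amount, -0.83, without passing the threshold (limma adjusted p = 0.0237), and its groups did not overlap either. One more, at 153513720, differed by -0.12. Within arrays, the contrast of the called probe with that at 153508326 differed between genotypes by 0.05, and that with the probe at 153513720 by -0.67.

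Itch encodes a ubiquitin ligase that restrains T-cell activation, and its 2 tested probes had differences of opposite sign. The called probe at 154943270 was at -2.60, -3.80, -3.36, -3.84 and -2.79 in injured WT and at -6.28, -5.47, -4.57, -5.02 and -6.56 in injured Myd88KO. It was well above background on all 5 injured WT arrays but on only 2 of 5 injured Myd88KO arrays, so that the difference of -2.30 (SE 0.373, limma adjusted p = 0.00216) rests on dim signals. It was no longer called with slide as a block (limma adjusted p = 0.0123) or without injured WT array 5 (limma adjusted p = 0.0101), and with another background correction it was -0.86 (limma adjusted p = 0.0130). Among arrays scanned on 1 day (1 and 5) the injured difference was -3.72, and among those of the other day (2 to 4) it was -1.35. The brighter probe at 154967573 was at 1.59, 0.93, 1.38, 0.97 and 1.48 in injured WT and at 2.04, 1.60, 1.70, 1.83 and 2.01 in injured Myd88KO. There Myd88KO was above WT on every array, by 0.57 (SE 0.152), which did not pass (limma adjusted p = 0.106). Another 2 Itch probes were too dim to be tested.

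Eif2s2, the beta subunit of the initiation factor that carries initiator tRNA to the ribosome, was the one named gene besides Rbm39 with a probe called higher. The probe at 154612275 to 154612334 was at 1.13, 0.51, 0.65, 0.43 and 0.99 in injured WT and at 1.89, 1.90, 1.73, 2.00 and 2.54 in injured Myd88KO. All Myd88KO arrays were above all WT arrays, by 1.27 (SE 0.190, limma adjusted p = 0.000921) or 2.41-fold, and by 1.25 without injury. With the 10 injured arrays alone it was not called (limma adjusted p = 0.0303). The other Eif2s2 probes, at 154613542 and 154629258, differed by 0.13 and 0.12 in injured and by -0.28 and -0.01 in uninjured tracheas.

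Rbm39 encodes a splicing factor and transcriptional coactivator also known as CAPER, and 2 probes only 2.38 kb apart gave opposite signs. The first, at 155911126 and named Rbm39 through an older symbol, was at -1.41, -2.07, -1.84, -2.73 and -1.43 in injured WT and at -0.76, -0.63, 0.44, 0.19 and -0.87 in injured Myd88KO. It was 1.57 higher in Myd88KO (SE 0.294, limma adjusted p = 0.00927), just past the threshold, and was no longer called with slide as a block (limma adjusted p = 0.0238) or without any one of injured WT arrays 2 to 5 or injured Myd88KO arrays 2 to 4 (limma adjusted p from 0.0107 to 0.0373). By scan day it was 0.61 over arrays 1 and 5 and 2.21 over arrays 2 to 4. The second, at 155913507, is listed as transcript TC1479950 with partial similarity to the same coactivator. It was at 0.47, -0.17, 0.57, -0.46 and 0.75 in injured WT and at -1.98, -1.90, -1.21, -1.54 and -1.99 in injured Myd88KO, a difference of -1.96 (SE 0.223, limma adjusted p = 3.27e-05). Both probes point to the minus strand. The remaining Rbm39 probes, at 155888489 and 155890178, differed by 0.57 and 0.85 after injury and by -0.44 and -0.30 before it, and neither passed.

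The other called probes name full-length cDNAs without a gene. AK035497, from urinary bladder and at 155295315, was at -3.43, -3.94, -3.24, -4.15 and -3.68 in injured WT tracheas. It was not well above background on any of the 10 Myd88KO arrays, so its level there is only a bound. It was at least 2.55-fold lower in injured and at least 2.83-fold lower in uninjured Myd88KO tracheas (limma adjusted p = 1.94e-05 for the injured comparison). With another background correction the injured difference was -0.72 (limma adjusted p = 0.0644).

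AK047604, from neonatal cerebellum and at 156473700, was the most raised transcript of the 9. It was at -4.02, -5.60, -4.05, -4.92 and -4.06 in injured WT, where 3 of 5 arrays were well above background, and at -2.26, -2.10, -2.14, -1.88 and -1.70 in injured Myd88KO, where all 5 were. The groups were apart by 2.51 (SE 0.316, limma adjusted p = 0.000114), against 2.47 in uninjured tracheas. With another background correction this difference was 1.20 and was still called (limma adjusted p = 0.00073).

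**Figure D3:**
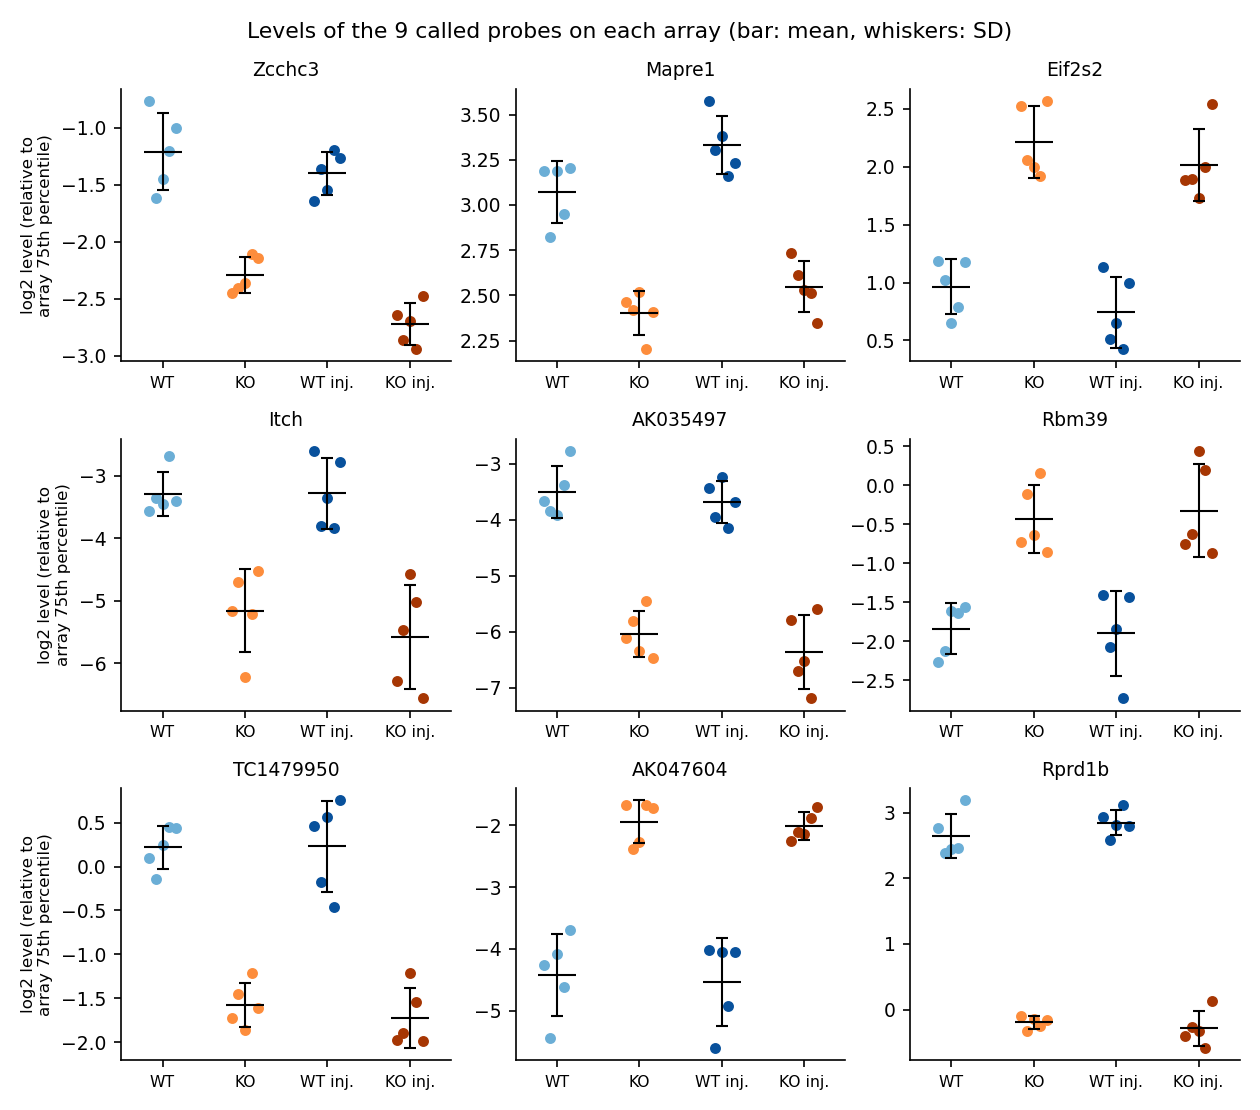
Levels of the 9 called probes (log2 intensity relative to the array's 75th percentile) on each of the 5 arrays per group, uninjured WT and KO and injured WT and KO, with the mean as a bar and the SD as whiskers. In every panel the Myd88KO arrays lie on one side of the WT arrays of the same state, and the uninjured and injured groups of 1 genotype lie at like levels.

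Agreement between probes of 1 gene was examined next. In the interval 69 genes had at least 2 tested probes, and the median range of the injured differences within a gene was 0.201 on the log2 scale, where the median absolute difference of all 280 probes was 0.246. In 47 of the 69 genes all probes had the same sign. The range exceeded 1 in 5 genes: Rprd1b (2.88), Itch (2.87), Snhg11 (1.72), Nfs1 (1.22) and Eif2s2 (1.15). Of the 69, only Rprd1b, Itch, Eif2s2, Rbm39 and Mapre1 had a called probe, and in none of these 5 were all tested probes called. The remaining 4 called probes were the only tested probe of their gene or transcript.

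**Figure D4:**
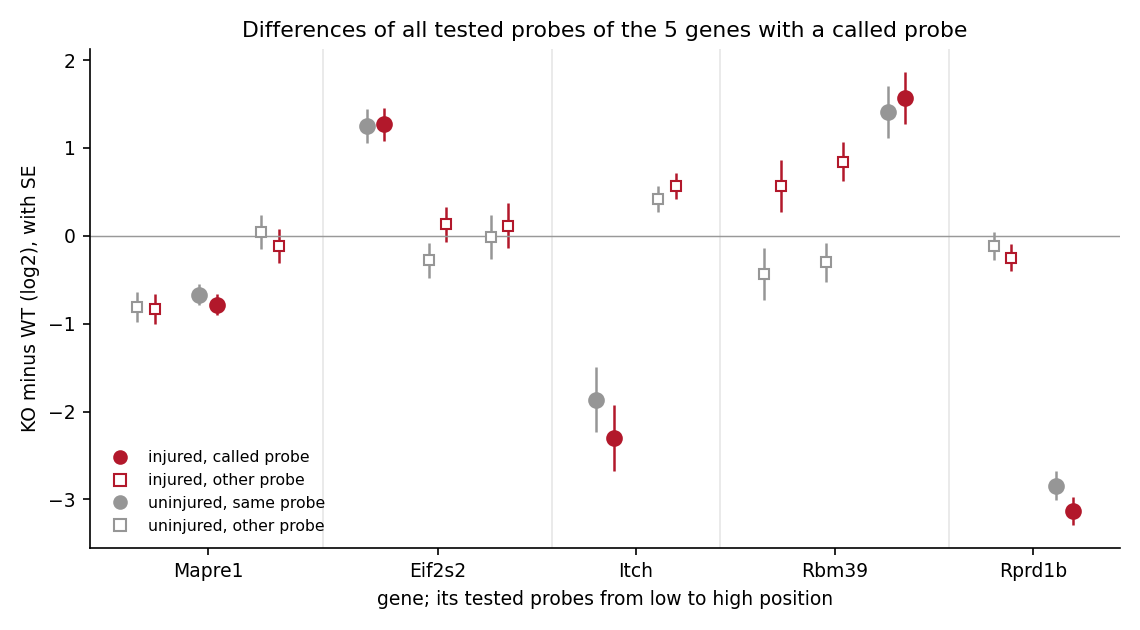
Myd88KO minus WT difference (log2, with SE) of each tested probe of the 5 genes that had a called probe and at least 1 more, in injured (red) and uninjured (grey) tracheas, with called probes as filled circles and the others as open squares. Only Mapre1 has a second probe close to the called one, at -0.83 beside -0.78, while Rprd1b, Itch and Eif2s2 have probes over 1 log2 unit away.

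The nearest tested genes to Rprd1b, with Lbp left out, showed no difference of its size. On the lower side Blcap, Nnat, Ctnnbl1, Vstm2l and Tti1, and on the upper side Tgm2, D630003M21Rik, Snhg17, Snhg11 and Ralgapb, had injured differences from -0.92 (Nnat) to 1.33 (one Snhg11 probe), and none of their probes passed. Lbp, 0.252 Mb beyond Rprd1b and left out of the counts, was at 1.53, 1.97, 1.64, 2.27 and 1.57 in injured WT and at 2.27, 3.21, 3.59, 3.29 and 3.06 in injured Myd88KO tracheas, thus higher in Myd88KO where Rprd1b was lower. The Lbp difference after injury, 1.29 (SE 0.230, limma adjusted p = 0.0059), passed the threshold. At the lower limit of the interval Sstr4, the first tested member, differed by -0.22 and -0.04 (2 probes) after injury. Foxa2, the nearest tested gene outside, differed by 0.50. At the upper limit Wfdc15b, the last tested member, differed by 0.47 and Slpi, the nearest tested gene outside, by -1.52 (SE 1.19). These edge values are given as a description.

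Genes that work with Rprd1b or are known as its targets were looked up across the genome. Of 28 tested probes for 13 such genes, including Rprd1a, Rprd2, Polr2a, cyclin D1 (Ccnd1), cyclin B1 (Ccnb1), Ctnnb1 and Myc, none passed in either Myd88KO against WT comparison, with a median injured difference of -0.14 against -0.03 over all tested probes. The Ccnd1 probe differed by -1.03 after injury (limma adjusted p = 0.0580) and by -0.65 before it, and was not called. After injury the groups only just failed to overlap, the highest Myd88KO array being at 2.39 and the lowest WT array at 2.40. Of all tested probes 1.96% stood without overlap after injury. Before injury the Ccnd1 groups overlapped. All 3 Ccnb1 probes were raised by injury in WT tracheas, by 2.15 to 2.77. They were the only ones of the 28 called there, where 3.24% of all tested probes were called higher. In Myd88KO tracheas they rose by 2.13 to 2.71, a like amount, without passing (limma adjusted p from 0.0114 to 0.0345).

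Between uninjured and injured tracheas the 9 probes differed little. None was called for injury, with changes from -0.22 to 0.26 in WT and from -0.43 to 0.14 in Myd88KO tracheas, and the difference between the 2 responses ran from -0.44 to 0.16 (smallest limma adjusted p = 0.664). These are measured sizes, and a p that misses the threshold does not show that there was no change.

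Elsewhere in the interval some probes changed with injury in WT tracheas, at a share near that of all tested probes. There 20 of 280 probes (7.14%) were called, 16 higher and 4 lower, against 5.26% of all tested probes. Leaving out any 1 array of the 2 groups other than uninjured WT array 3 brought the number to between 8 and 12. The share of all tested probes called in those fits is not given here. The largest rises were in the BPI-fold cluster. Bpifb5 rose from -0.65, -0.28, -1.64, -0.92 and -0.93 to 3.71, 2.77, 3.48, 3.10 and 4.58, by 4.41 (SE 0.502, limma adjusted p = 8.02e-05). Bpifb9a, which varied widely between arrays, rose by 4.72 (SE 0.961, limma adjusted p = 0.00367). In the same cluster Bpifa1, an abundant antimicrobial protein of airway secretions, fell by 2.24 (SE 0.312, limma adjusted p = 0.000372), from 8.85 ± 0.403 to 6.62 ± 0.394 (SD, n = 5). Of 7 tested BPI-fold probes 2 rose and 1 fell, and their median change was -0.41 against 0.00 over all probes.

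Some genes of cell division were also higher. Of 16 tested probes of the cell cycle list 4 rose after WT injury, none fell and 12 did not pass, where 3.24% of all tested probes rose: Tpx2, a spindle assembly factor, by 2.27 (SE 0.442), Mybl2 by 2.24, one E2f1 probe by 1.77 (another was at 1.28, limma adjusted p = 0.0231) and the kinetochore gene Dsn1 by 1.73. Both probes of the replication gene Gins1 rose, by 1.72 and 1.59. For Samhd1, which breaks down nucleotides in myeloid and other resting cells, 1 of 2 tested probes rose, by 1.15, and the other was at 0.85 (limma adjusted p = 0.406). For the endothelial and myeloid receptor gene Cd93, 1 of 2 rose, and the other was at 1.13 (limma adjusted p = 0.0177). The cell cycle list had a median change of 0.48 against 0.00 over all probes. In a whole trachea, more cells of a type and more RNA per cell cannot be told apart.

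The largest fall was that of Gtsf1l, a member of a gametocyte-specific factor family, from 1.61, 0.81, 0.40, 0.90 and 0.56 to -6.03, -3.66, -4.32, -4.06 and -5.41, by 5.55 (SE 0.800, limma adjusted p = 0.00039). It was well above background on 3 of the 5 injured WT arrays. Acss2, which makes acetyl-CoA from acetate, fell by 1.12 at 1 of 2 tested probes (the other was at -1.06, limma adjusted p = 0.0353), and Ggt7 by 0.76 at 1 of 2 (the other was at -0.57, limma adjusted p = 0.0140). Among cystatins (2 tested probes), WAP-domain genes (4) and developmental transcription factors (7) none passed for injury in either genotype or for genotype in either state. Among 6 probes on the contractile gene list only 1 was called for injury in WT, for Tgm2, a protein crosslinking enzyme, higher by 0.76. The other Tgm2 probes were at 0.77 and 0.80 (limma adjusted p = 0.129 and 0.121). Of 14 probes on the list of RNA and RNA polymerase II genes none passed for injury, and only the Rprd1b and Rbm39 probes above passed for genotype.

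In Myd88KO tracheas 2 of 280 probes (0.714%) were called for injury, against 0.376% of all tested probes. Bpifa1 fell by 2.36 (limma adjusted p = 0.00287), from 8.82 ± 0.273 on 5 arrays to 6.46 ± 0.914 on the 4 injured arrays that had an unflagged spot. Emilin3, an extracellular matrix gene, fell by 1.35 (SE 0.226, limma adjusted p = 0.00574), from -1.31, -1.93, -2.03, -2.10 and -1.21 to -3.72, -2.62, -2.75, -3.21 and -3.04. None of the 16 probes that rose in WT was called in Myd88KO, where their changes ran from 0.04 to 4.88. There 9 of the 16 had an unadjusted p under 0.05, against 19.5% of all tested probes. The difference between the 2 responses was tested directly, and no probe of the interval or of the whole array passed (0%, limma, smallest adjusted p in the interval 0.390), while 33 of 280 (11.8%) had an unadjusted p under 0.05, against 10.4% of all tested probes.

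The injured Myd88KO arrays were unlike each other for these genes. Over the 16 probes, the median rise above the uninjured Myd88KO mean was 0.27, 1.85, 0.78, 1.78 and -0.14 on arrays 1 to 5. On injured WT arrays 1 to 5 the median rise above the uninjured WT mean was 1.62, 1.72, 1.63, 1.65 and 1.57. These probes were selected by their call in WT, so a larger and more even rise there is partly built in. Without injured array 2, 3 or 4, or uninjured array 3, no probe was called for injury in Myd88KO, and without uninjured array 1, 2 or 5 there was 1. With injured array 5 left out, 18 probes were called for injury in Myd88KO, and without arrays 1 and 5, a choice made after seeing the data, 29 were. The share of all tested probes called in these fits is not given here, so nothing about the interval is read from these counts. Injured Myd88KO array 5 had the smallest share of probes well above background, 57.5%, and arrays 1 and 5 were scanned on 1 day and arrays 2 to 4 on the other. The 9 calls between injured Myd88KO and WT were all kept without array 5, and 8 of them were without both.

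**Figure D5:**
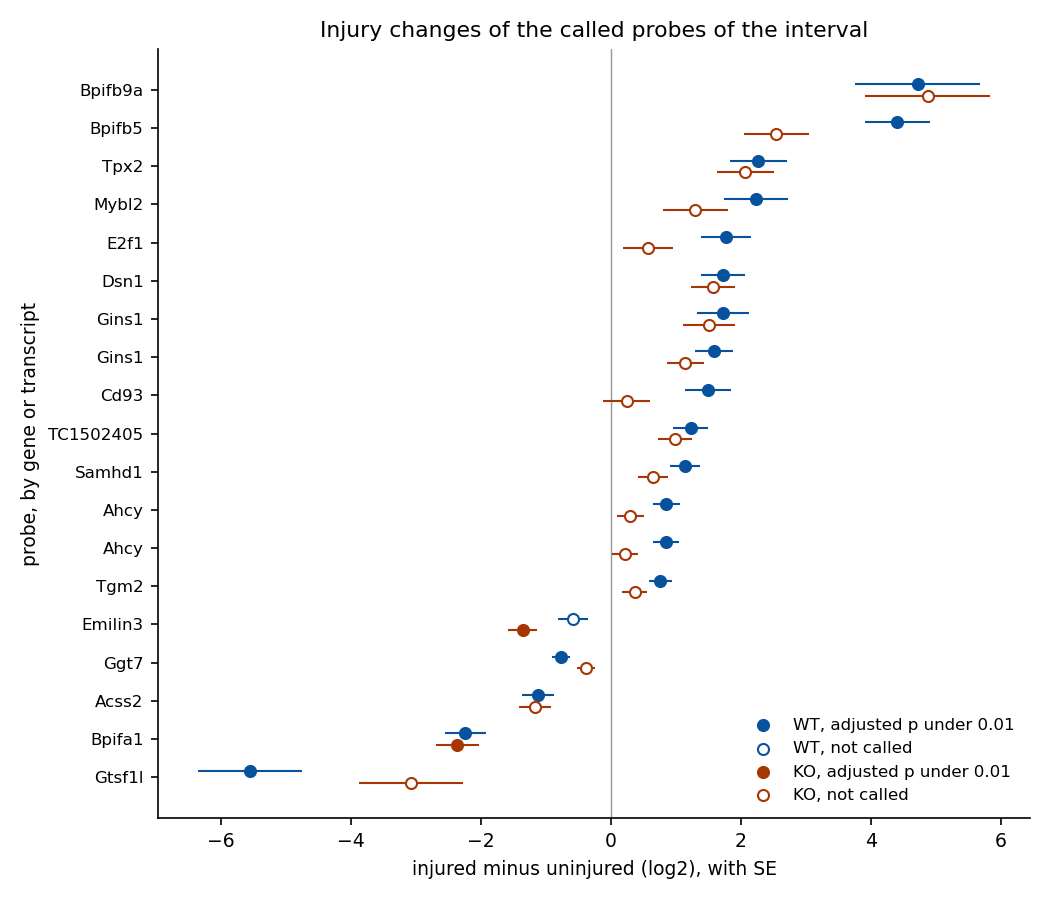
Injury change (injured minus uninjured, log2, with SE) in WT (blue) and Myd88KO (brown) tracheas of 19 probes of the interval called in either genotype, ordered by the WT change. Filled points have an adjusted p under 0.01: 18 in WT, from Gtsf1l at -5.55 to Bpifb9a at 4.72, and 2 in Myd88KO, Bpifa1 and Emilin3.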

How the data were processed

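Each of 20 whole tracheas was hybridised to 1 one-colour Agilent whole mouse genome array, and per the file headers the authors extracted spot intensities with Agilent Feature Extraction 9.5.1.1. The deposited files hold processed signal intensities after background subtraction. The genome build of the positions is not given in the sources used here. Spots flagged as outliers were left out, spots of 1 probe were averaged, and log2 intensity was set relative to each array's 75th percentile. Probes well above background on at least 10 arrays were fitted by limma 3.58.1 in R 4.3.3, all 4 groups in 1 fit, with Benjamini-Hochberg adjustment over 26063 probes and a threshold of 0.01. The script was tested on simulated data. The deposited value table follows the same processed signals (ratio 0.995 to 1.00 of the file values), with no scaling between arrays, and served as an alternative. Spots have no known read depth, so precision rests on the number of arrays. The methods call the 5 samples of a group biological replicates.

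The members and the gene lists were chosen with earlier results of these data known. Named were both Rprd1b probes, all called probes in Myd88KO against WT and other probes of those genes. Named too were the 5 nearest tested genes on each side of Rprd1b without Lbp, the 6 largest injury rises and falls, and list members. Other probes named, such as those of Gins1, were chosen after their values were seen. Of the 396 probes, RefSeq (GRCm38.p6) named 247 through their accession, 65 through the symbol and 31 through a former symbol, and 53 kept the array's name. A probe on no array of a group above background has only a bound, taken against the lowest signal well above background. Same-numbered arrays shared a slide, and slides were scanned on 2 days (arrays 1 and 5, arrays 2 to 4). Alternatives changed background correction, scaling, filter, test, threshold, limits of the interval, slide, scan day and arrays. Some items of the interval are not reported here by name, and the plot of injury changes leaves them out.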

Additional observations from a re-analysis of the deposited data

Results flagged for a closer look

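In 1 of 40 sets of 5 arrays examined (10 probes in 4 groups), 1 array lay far from the other 4, where chance gives about 1 in 20. The Itch probe at 154943270 was at -2.69 on uninjured WT array 4, and at -3.57 to -3.36 on the other 4 uninjured WT arrays. That array was farther from the uninjured Myd88KO arrays than the rest of its group.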

How the results depend on the processing

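Between injured Myd88KO and WT the 9 calls became 5 when only the 10 arrays compared were fitted and 2 with the methods' one-way test, all of them among the 9. Leaving out 1 array at a time gave 7 to 9 calls. Between uninjured groups the 7 calls became 17 with array weights, 3 with the one-way test and 14 at an adjusted p under 0.05, and 6 to 7 with 1 array left out. For injury in WT the 20 calls became 13 with no filter on dim probes, 34 with array weights and 36 at an adjusted p under 0.05, and 8 to 19 with 1 array left out. For injury in Myd88KO the 2 calls became 4 with normexp background correction, 6 with scan day as a block, 0 in the fit of 10 arrays, 27 with array weights, 0 with the one-way test, 18 at an adjusted p under 0.05 and 29 without arrays 1 and 5, an alternative chosen after seeing the data, and 0 to 18 with 1 array left out. The shares of all tested probes called under these alternatives are not given here, and the cause of these changes was not tested. The difference between the responses had 0 calls under every alternative run. No direction reversed among the results and alternatives run. The Rprd1b and Zcchc3 probes kept their calls under all 21 alternatives, with Rprd1b between -3.24 and -2.99. Among the 9, calls were kept least often by the Rbm39 probe (9 of 21 alternatives) and the Itch probe (14 of 20). Dim AK035497 and AK047604 probes, whose signal lies near background, kept theirs under 18 and 19 of 20. With normexp background correction their differences shrank to -0.72 and 1.20.

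Each slide held the same-numbered array of every group. Deviations of same-numbered arrays from their group means correlated at r = -0.26 to 0.48 over 30 pairs, 23 of them over 0.1 and 7 not. The labels give no pairing of animals, but slide and scan day are shared by same-numbered arrays. With the replicate number as a block, 9 probes were called between injured groups, 7 of them among the 9 (without Itch and Rbm39) and 2 others, 8 between uninjured groups, 18 for injury in WT, 4 for injury in Myd88KO and 0 for the difference.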
